A study of Mus musculus with 12 samples.

Results

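Tppp, Odf3b, Leng1 and Dusp26 are 4 genes whose signal was higher in the colon of mice on a methyl deficient diet, and none of them is a usual marker of the colon. They were chosen from earlier results of these data for their diet difference. Every probe of the deposited signal table annotated to one of the 4 symbols was taken, which gave 6 of 25697 probes, for 4 of 16593 named genes. Tppp and Odf3b had 2 probes each, and Leng1 and Dusp26 had 1 each. All 6 passed the filter on dim probes (detection p-value under 0.05 on at least 4 of 12 arrays), as did 13497 probes of 9509 genes in all.

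Normal colon was taken from animals of the ApcMin strain. Their germline carries a truncated Apc tumour suppressor gene, so every cell of both diet groups does, and they form intestinal polyps. The animals were fed a methyl sufficient diet (the control group, 2 animals, numbered 1 and 3) or a methyl deficient diet (4 animals, numbered 1 to 4) for 11 weeks, and 2 samples of each animal were hybridised, giving 4 sufficient and 8 deficient arrays. Age is not given in the sources used here. The samples were whole tissue, so a lower or higher signal from fewer or more cells of a type and from less or more RNA per cell cannot be told apart.

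Tppp encodes a protein that binds tubulin, promotes its polymerization and stabilizes microtubules, and it is best known from myelinating glia of the brain. Dusp26 encodes a dual specificity phosphatase that acts on MAP kinases, p38 among them, and is known from nervous tissue. Odf3b is named for its relation to the outer dense fibres of the sperm tail. Leng1 lies in the leukocyte receptor cluster and is little studied.

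RefSeq promoter sequences (GRCm38.p6, 250 bases before the gene's start and 50 after) matched 3 of the 4 genes. They are shown for their base composition and CpG content around the start, in which the 3 windows differ. No other sequence of the members was compared. Capitals mark the CpG dinucleotides. The windows are chr13:74009169-74009468 (plus strand) for Tppp, chr15:89379205-89379504 (minus strand) for Odf3b and chr7:3665791-3666090 (minus strand) for Leng1.
Tppp: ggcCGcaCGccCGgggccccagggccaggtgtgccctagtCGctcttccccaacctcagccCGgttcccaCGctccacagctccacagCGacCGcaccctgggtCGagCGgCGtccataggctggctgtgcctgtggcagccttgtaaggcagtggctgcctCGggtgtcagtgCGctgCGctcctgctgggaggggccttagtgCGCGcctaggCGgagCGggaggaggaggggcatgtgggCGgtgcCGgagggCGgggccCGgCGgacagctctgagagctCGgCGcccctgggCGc
Odf3b: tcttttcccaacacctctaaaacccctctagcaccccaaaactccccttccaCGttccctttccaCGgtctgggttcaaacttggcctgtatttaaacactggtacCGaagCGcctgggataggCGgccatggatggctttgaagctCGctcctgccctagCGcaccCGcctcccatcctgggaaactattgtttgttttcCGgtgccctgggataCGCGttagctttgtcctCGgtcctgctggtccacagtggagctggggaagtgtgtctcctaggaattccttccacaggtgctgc
Leng1: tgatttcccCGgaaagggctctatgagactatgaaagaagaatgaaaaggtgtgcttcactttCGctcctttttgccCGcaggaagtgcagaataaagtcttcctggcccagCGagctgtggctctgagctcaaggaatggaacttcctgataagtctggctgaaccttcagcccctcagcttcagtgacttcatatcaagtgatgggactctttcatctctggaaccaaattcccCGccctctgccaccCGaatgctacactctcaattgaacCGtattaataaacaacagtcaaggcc
The Tppp window held 26 CpG dinucleotides and was 73.3% G or C. The Odf3b window held 12, at 55.7% G or C, and the Leng1 window 7, at 48.3%. The median over 32851 promoters of this length was 7, and 83.1% of them held fewer than Tppp, 60.4% fewer than Odf3b and 47.9% fewer than Leng1. The GC box GGGCGG, searched on both strands, was found at bases -10 and 4 of the Tppp window and at base -15 of Leng1, counted from the gene's start, but not in Odf3b. It occurs in 35.7% of all promoters. The E-box CACGTG (7.15% of promoters), the cyclic AMP element TGACGTCA (1.79%), CCAAT (37.4%) and the TATA box TATAAA (13.6%), also searched on both strands, were in none of the 3 windows. Methylation was not analysed here.

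Before the values, the arrays' identity needs a remark. The Y-linked genes Eif2s3y and Kdm5d and the X-inactivation transcript Xist split the arrays into 8 male and 4 female ones. Eif2s3y had a normalised log2 signal of 9.39 to 10.22 in males and 4.47 to 4.56 in females, and Xist 4.84 to 5.06 in males and 6.87 to 7.42 in females. Both sufficient animals and deficient animals 3 and 4 each held 1 male and 1 female array, so these samples do not pair by animal as labelled. The diet of each array was kept as labelled. Errors below are over sex-matched pairs, in which the arrays of these 4 animals were rejoined by sex within their diet (n = 2 sufficient and n = 4 deficient pairs), because averaging a male and a female array hides the spread between them. Whether the rejoined arrays share an animal is not known. The 2 sufficient pairs are 1 male and 1 female pair. Their SD is therefore the male-female difference on that diet divided by the square root of 2, and in it sex and animal cannot be told apart. Tgm4, a transglutaminase of the prostate, was at 12.51 to 12.83 on 2 sufficient and 2 deficient arrays and at 4.57 to 4.73 on the other 8. Before normalization the median signal per array ran from 59.4 to 71.5, with 12609 to 13241 probes detected.

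Of the 4 genes, Tppp had the largest difference between the diets. The scanner signal of its brighter probe, ILMN_2696110, was 122 to 190 on the sufficient arrays and 457 to 680 on the deficient ones, before normalization. On the normalised log2 scale it was 7.16 and 6.81 in samples 1 and 2 of sufficient animal 1 and 6.90 and 7.11 in those of animal 3. On the 8 deficient arrays it ran from 8.75 to 9.32, with a median of 9.10. No deficient array came near the sufficient ones, the gap between the closest arrays being 1.58. The mean went from 6.997 ± 0.20 (SD, n = 2 pairs) to 9.06 ± 0.19 (SD, n = 4 pairs), a log2 difference of 2.07 (SE 0.16), or 4.19-fold.

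The second Tppp probe, ILMN_2950422, lay close to background on the sufficient diet. Its log2 signal was 5.17 and 5.03 in animal 1 and 4.93 and 5.71 in animal 3, and only the last of these was detected. On the deficient diet it was detected on all 8 arrays, at 6.31 to 7.29 with a median of 7.02. The highest sufficient array, a male one, was 0.61 below the lowest deficient array. The mean went from 5.21 ± 0.33 (SD, n = 2) to 6.94 ± 0.22 (SD, n = 4), a fitted difference of 1.73 (SE 0.19). With undetected signals raised to the detection floor of their array the difference was 1.61. Since 3 of the 4 sufficient arrays were not detected, its size rests on the background correction, and it ran from 1.14 to 2.52 over the scalings tried. In the authors' processed values the order of the probes turned, at 2.52 for this probe and 2.20 for the brighter one.

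Odf3b was measured by a probe of moderate signal and a dim one. For ILMN_2759088 the log2 signal was 7.19 and 6.52 in sufficient animal 1 and 6.51 and 7.03 in animal 3. The 8 deficient arrays ran from 7.71 to 8.61, with a median of 8.44. In both labelled sufficient animals the male array was the higher one, and the lowest deficient arrays were the 2 males of deficient animals 3 and 4, at 7.71 and 7.79. The mean went from 6.81 ± 0.42 (SD, n = 2) to 8.27 ± 0.37 (SD, n = 4), a difference of 1.46 (SE 0.26), or 2.75-fold.

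The dimmer Odf3b probe, ILMN_1251371, gave the same order. It stood at 5.64 and 5.23 in sufficient animal 1 and at 5.20 and 5.46 in animal 3, and was detected on all 4 arrays. On the deficient diet it ran from 6.11 to 7.01, with a median of 6.70, and the same 2 male arrays were lowest, at 6.11 and 6.15. The diets were 0.47 apart at their closest arrays, the smallest gap of the 6 probes. The mean went from 5.38 ± 0.24 (SD, n = 2) to 6.65 ± 0.35 (SD, n = 4), a difference of 1.26 (SE 0.23), or 2.40-fold. The size of this difference depends on the scaling, and it ran from 0.83 to 1.73 over those tried.

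Leng1 was the steadiest of the members. ILMN_1234337 had a log2 signal of 6.17 and 6.13 in sufficient animal 1 and of 5.89 and 6.19 in animal 3. The deficient arrays ran from 6.96 to 7.40, with a median of 7.07. Each diet's arrays lay in a narrow band, and the bands were 0.77 apart. The mean went from 6.09 ± 0.12 (SD, n = 2) to 7.12 ± 0.08 (SD, n = 4), a difference of 1.03 (SE 0.11), or 2.04-fold.

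Dusp26 was measured by ILMN_2611295, at 6.59 and 6.995 in sufficient animal 1 and 6.78 and 6.81 in animal 3. The deficient arrays ran from 7.70 to 8.37, with a median of 7.91. Here the female array was the higher one in sufficient animal 1, and the highest deficient array was a female of animal 3. The mean went from 6.79 ± 0.13 (SD, n = 2) to 7.96 ± 0.17 (SD, n = 4), a difference of 1.17 (SE 0.14), or 2.25-fold.

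**Figure D1:**
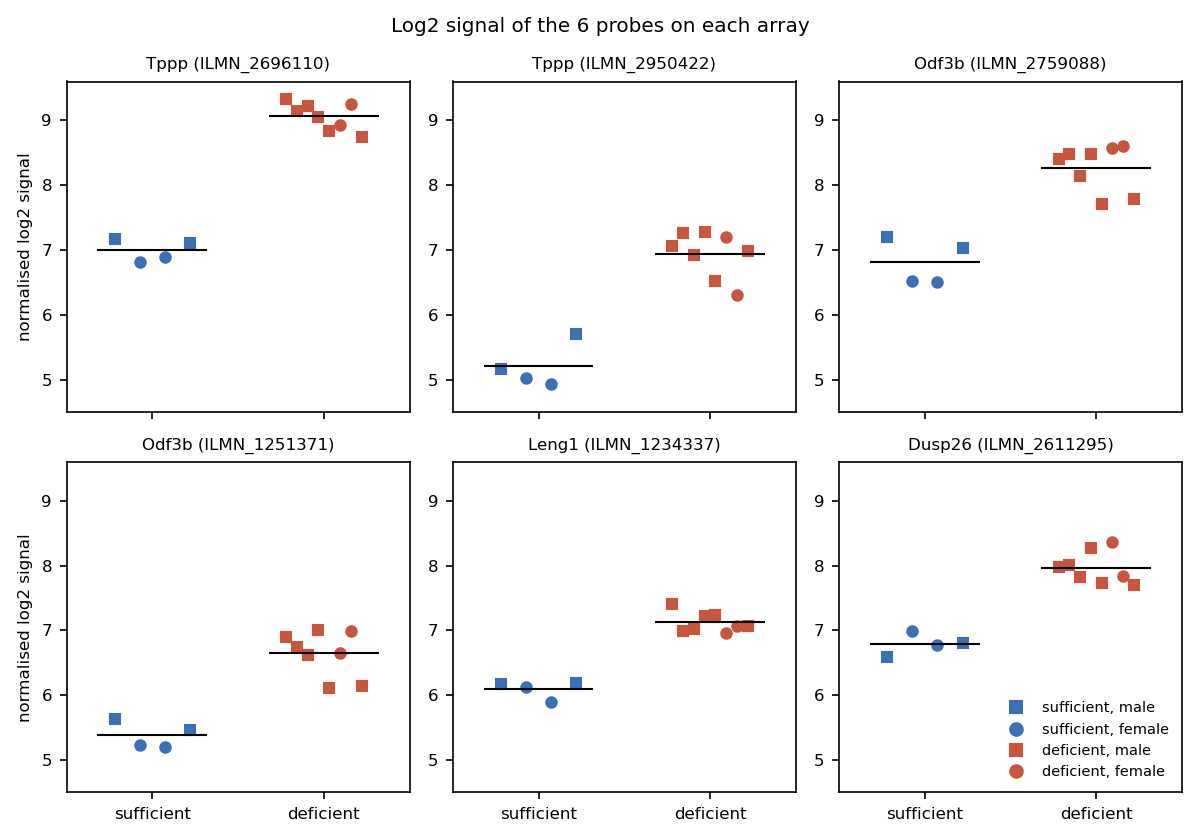
Normalised log2 signal (y axis) of each of the 6 probes on the 4 sufficient and 8 deficient arrays (x axis), with squares for male and circles for female arrays and a line at the mean of each diet. On every probe all deficient arrays lie above all sufficient ones, by 0.47 for the dimmer Odf3b probe and by up to 1.58 for Tppp.

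On all 6 probes the 8 deficient arrays lay above the 4 sufficient ones, a separation found for 3.27% of all probes tested. With the labelled animals as units, limma called 6 of the 6 probes higher at an adjusted p under 0.05, as it did 5.30% of all probes (5.51% were lower). With sex-matched pairs it called 4 of 6, where 0.0815% of all probes were higher and 0.200% lower. The 2 not called were both Odf3b probes. These counts restate the choice of the members, which was made on this contrast, and support nothing further. Without the 4 arrays of high Tgm4, which include both sufficient males and so leave females alone on that diet, the differences were 2.18 and 1.91 for Tppp, 1.75 and 1.37 for Odf3b, 1.11 for Leng1 and 1.05 for Dusp26. Without the male arrays of deficient animals 3 and 4 they were 2.16, 1.80, 1.63, 1.44, 1.02 and 1.25 in the same order.

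Probes of 1 gene can be compared with each other in their deviations from the mean of each diet, which the choice of the members did not use. Over the 12 arrays, several of which share a mouse, the Odf3b probes moved together, with Pearson's r = 0.90 and Spearman's rho = 0.81. Without the male arrays of deficient animals 3 and 4, which were farthest from the median, r was 0.78. The Tppp probes did not move together, with r = 0.14 and rho = 0.07, and r = -0.02 without these 2 arrays. Both the low signal of the second probe on the sufficient diet and its within-diet SD of 0.35, against 0.20 for the brighter one, move with this; their part was not tested. Where each probe lies in its transcript was not analysed here.

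**Figure D2:**
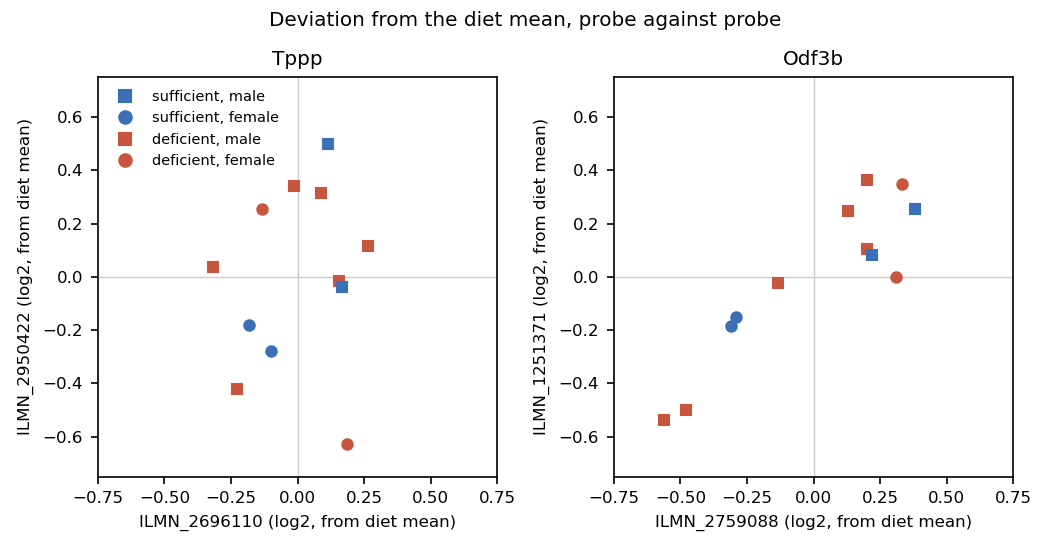
Deviation of each array from the mean of its diet (log2) for the brighter probe (x axis) against the second probe (y axis) of Tppp (left) and Odf3b (right), 12 arrays each, squares male and circles female. The Odf3b points lie along a line (r = 0.90) and the Tppp points do not (r = 0.14).

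Within-diet spread set the genes apart. The pooled SD was 0.35 and 0.31 for the Odf3b probes, above 87.1% and 82.0% of all probes tested, and 0.15 for Leng1, above 20.0% of them. Dusp26, at 0.22, and the brighter Tppp probe, at 0.20, were near the median of 0.21. Between genes, the brighter Tppp probe varied with the Odf3b probes (r = 0.72 and 0.82), and Leng1 with none of the others above r = 0.29. Dusp26 varied with the second Tppp probe at r = 0.48 (rho = 0.54, and r = 0.53 without the 2 arrays farthest from the median), with the brighter Odf3b probe at r = 0.38 and with the brighter Tppp probe at r = -0.07. For Tppp with the brighter Odf3b probe r was 0.47 without the 2 deficient male arrays.

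Sex was not used to choose the members and could be tested. With diet in the model and sex-matched pairs as units, limma put 0 of the 6 probes past an adjusted p of 0.05 for male against female, and 0 reached an unadjusted p of 0.05. Over all probes 4 were called (0.0296%) and 756 had an unadjusted p under 0.05. With 1 female pair on each diet this test has little power, so the 0 does not show that sex is without effect. The largest male minus female log2 difference was 0.33 (SE 0.16), for the second Tppp probe, with an adjusted p of 0.851, the lowest of the 6. For the brighter Odf3b probe it was -0.02 (SE 0.29, adjusted p = 0.995), with the males higher on the sufficient diet by 0.60 and the females higher on the deficient one.

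Since no array of one diet overlaps the other, the diet difference had to be positive in each sex. In males it was 1.92 and 1.57 for the Tppp probes and in females 2.23 and 1.78. For Odf3b it was 1.05 and 1.04 in males against 2.08 and 1.60 in females. Leng1 had 0.98 and 1.01, and Dusp26 1.22 in both. A diet-by-sex term in limma called no probe of the array, with 754 at an unadjusted p under 0.05. With 1 pair of each sex on the sufficient diet and 1 female pair on the deficient diet, it says little about whether the diet difference depends on sex.

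The array-to-array variation of Tppp and Odf3b ran with markers of fibroblasts and smooth muscle, and with other cell type scores given below. In all relations with cell type scores, Tppp and Odf3b stand for their brighter probe unless the second is named. The Tppp probes did not move together, so these relations hold for its brighter probe only. A score of 12 fibroblast genes, the mean of their log2 signals, was 8.17 to 8.88 on the sufficient and 9.01 to 9.81 on the deficient arrays. By limma 9 of the 12 were higher with labelled animals, beside 5.30% of all probes, and 1 with sex-matched pairs, beside 0.0815%. Pi16, Mfap4, Mfap5 and Eln on this list were already known to be higher in these data. Within diets the score varied with Odf3b at r = 0.93 (rho = 0.75) and with Tppp at r = 0.79 (rho = 0.64), over 12 arrays, with Dusp26 at r = 0.42 and with Leng1 at r = 0.18. Without the male arrays of deficient animals 3 and 4, r was 0.85 for Odf3b, 0.59 for Tppp, 0.01 for Dusp26 and 0.45 for Leng1. The order depends on the genes scored. With the 4 genes known to be higher left out, r over 12 arrays was 0.82 for Odf3b, 0.66 for Dusp26 (rho = 0.78), 0.58 for Tppp (rho = 0.40) and 0.07 for Leng1. Without the 2 arrays as well, it was 0.59, 0.48, 0.15 and 0.33 in that order. The second probes were compared within diets with this reduced score only, over 12 arrays, at r = 0.64 for Tppp and 0.78 for Odf3b.

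Those 2 arrays had the lowest fibroblast scores of the deficient diet, 9.01 and 9.08. They also had its lowest smooth muscle scores, 10.70 and 10.66 against 11.29 to 11.68 on the other deficient arrays, and its highest colonocyte scores, 11.59 and 11.52. The smooth muscle score (12 of 12 genes measured) was 10.80 to 11.03 on the sufficient diet, and varied within diets with Tppp at r = 0.86 and with Odf3b at r = 0.79 (0.76 and 0.47 without the 2 arrays). The colonocyte score (10 of 12 genes; Car1 and Epcam were not measured above the filter) was 11.26 to 11.64 on the sufficient and 11.03 to 11.59 on the deficient diet. It ran opposite to Odf3b, at r = -0.94, and to Tppp, at r = -0.71 (-0.89 and -0.47 without the 2 arrays). The relation was not particular to these cells. Over 12 arrays the endothelium score varied with Tppp at r = 0.65 and with Odf3b at r = 0.53. The T and NK cell score ran opposite to both, at r = -0.73 each. The neutrophil score had r = -0.02 and -0.26.

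**Figure D3:**
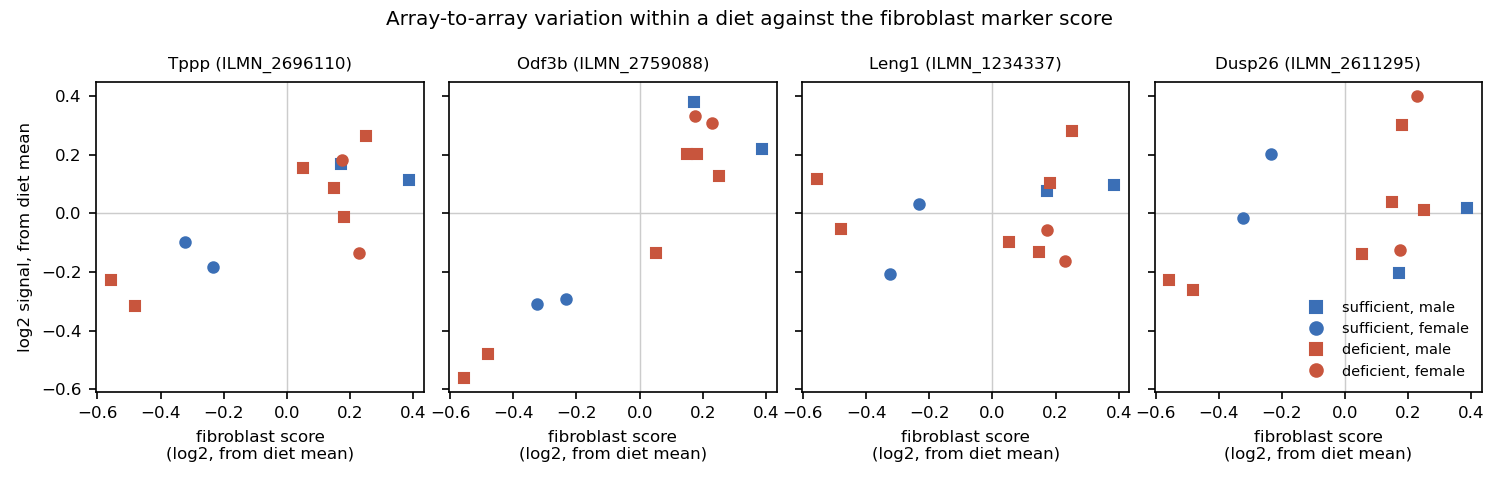
Log2 signal of 1 probe of each gene (y axis) against the fibroblast marker score (x axis), with the brighter probe of Tppp and of Odf3b. Both axes are deviations from the mean of each diet, over 12 arrays, squares male and circles female. Odf3b (r = 0.93) and Tppp (r = 0.79) follow the score, with the 2 deficient male arrays at the lower left, and Leng1 (r = 0.18) does not.

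With the fibroblast score as a covariate over the 12 arrays, an alternative chosen after seeing the data, the diet difference stayed above 0 for every probe but shrank unequally. It was 0.39 and 0.36 for the Odf3b probes, 1.56 and 1.12 for Tppp, 0.87 for Dusp26 and 0.94 for Leng1. With the 4 genes known to be higher left out of the score, Odf3b had 0.86 and 0.76, Tppp 1.83 and 1.27, Dusp26 0.87 and Leng1 1.01. The score itself differed between the diets (by 1.07, or 0.53 with 8 genes), so the covariate takes up part of the diet difference by construction, and the part of these cells in it was not tested. Smooth muscle or colonocyte scores moved the differences less, to 1.15 or 1.16 for the brighter Odf3b probe and 1.88 or 1.94 for the brighter Tppp probe.

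**Figure D4:**
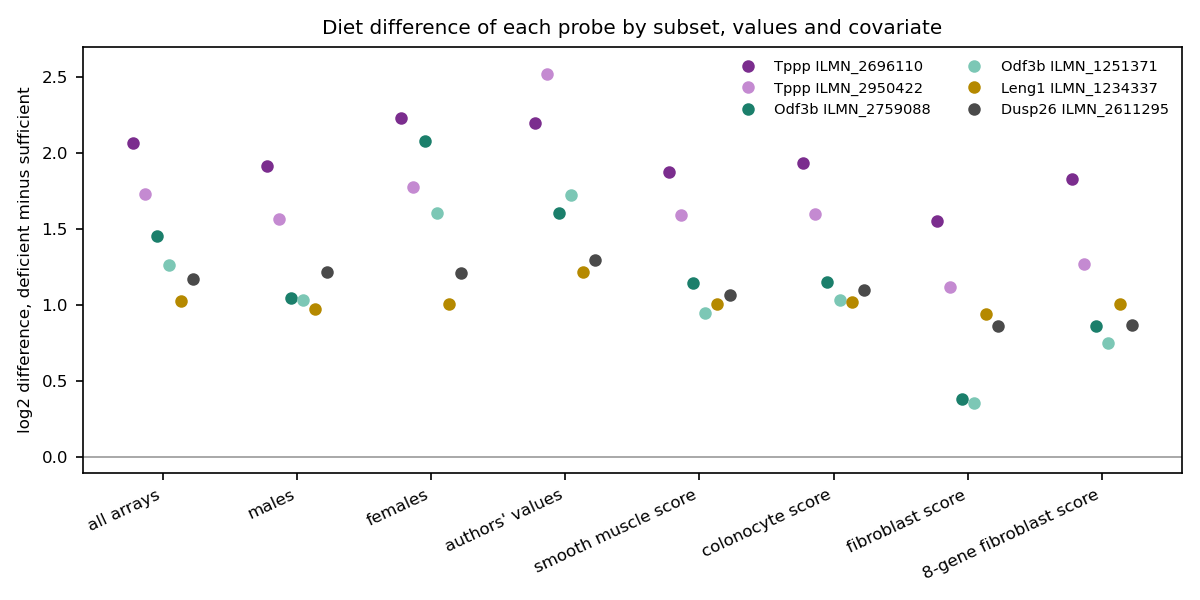
Log2 difference, deficient minus sufficient (y axis), of each of the 6 probes over all arrays, within each sex, in the authors' processed values and with a cell type score as covariate (x axis). All points lie above 0, and the Odf3b points fall lowest, to 0.39 and 0.36, with the fibroblast score.

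Tppp and Dusp26 are known from nervous tissue, so its markers were read too. Of 18 enteric neuron genes 12 were measured (Snap25, Nos1 and Tubb3 were among those not detected on enough arrays). Their score was 6.53 to 6.70 on the sufficient and 6.78 to 7.47 on the deficient arrays. By limma 9 of the 12 were higher with labelled animals, beside 5.30% of all probes, and 0 with sex-matched pairs, beside 0.0815%. Within diets the score varied with Odf3b at r = 0.76 and with Dusp26 and Tppp at r = 0.62 each over 12 arrays. Without the 2 deficient male arrays r was 0.36, 0.38 and 0.06. With Leng1 r was -0.12. Of 12 enteric glia genes only Ednrb and Cryab were measured, and S100b, Gfap and Sox10 were among those not detected on enough arrays. The mean of the 2 varied within diets with Tppp at r = 0.74 and with Odf3b at r = 0.76. Of 10 oligodendrocyte and Schwann cell genes 5 were measured, with a score of 8.06 to 8.23 on the sufficient and 7.66 to 7.89 on the deficient diet. Within diets this score ran opposite to Tppp, at r = -0.87, and to Odf3b, at r = -0.55, and had r = 0.27 with Dusp26. Egr2, a transcription factor also induced in immune cells, fell by 1.64 on the log2 scale (limma adjusted p = 0.000601, 0.0488 with sex-matched pairs), and the other 4 did not pass, with Mbp, a myelin protein, at 0.08 (adjusted p = 0.645). Their part in the members' differences was not tested.

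The genes whose arrays varied most like each member within diets were named by rank of r over the 12 arrays, among all named probes. Here too Tppp and Odf3b stand for their brighter probe. For Tppp they were Mfge8, the milk fat globule protein (0.96), Mylk, the myosin light chain kinase (0.96), Cdh13, a cadherin (0.95), Pcolce, an enhancer of procollagen processing (0.95), and Arhgef25 (0.95). For Odf3b they were Mfap5, a microfibril protein of the fibroblast list (0.97), Use1, Rasl11b, Mettl24 and C1qtnf2 (0.96 each). For Leng1 they were Sidt2 (0.91), Arhgap24 (0.90), Trim65 and Srpr (0.88 each) and Gas7 (0.87), and for Dusp26 Magee1 (0.92), Zpld2 (0.90), Larp6 (0.89), Adssl1 (0.88) and Esr2, an oestrogen receptor (0.87).

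Several genes that varied like a member within diets had a smaller diet difference. The members were chosen for their diet difference, so this contrast follows in part from the choice and supports nothing further. The log2 difference was 0.15 for Mfge8 (SE 0.16) against 2.07 for Tppp, and -0.03 for Mettl24 (SE 0.28) against 1.46 for Odf3b. Mfap5 had 1.82 (SE 0.37), C1qtnf2 0.90 (SE 0.30) and Magee1 0.68 (SE 0.14). By limma with labelled animals these 3, Use1 and Gas7 were higher, Adssl1 was lower and the other 14 did not pass. With sex-matched pairs none of the 20 passed, at adjusted p from 0.0999 to 0.992. Centring by diet and sex kept 5 of the 20 names, so the ranking is loose.

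Genes related to the members by family, partner or position, and with them a list of clock-controlled genes, were listed with earlier results of these data known. Of 198 listed, 117 were measured. By limma with labelled animals 12 were higher and 9 lower (10.3% and 7.69%, beside 5.30% and 5.51% of all probes). With sex-matched pairs 1 was higher and 1 lower, beside 0.0815% and 0.200% of all probes. These shares over all probes also belong beside the counts of each list below. The median log2 difference of the 117 was 0.06, against 0.01 for all probes. The clock-controlled genes, 12 of them measured, are not related to the members in these ways. They gave 4 of the 12 higher and 1 of the 9 lower with labelled animals, and the 1 higher with sex-matched pairs.

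The only other measured gene of the Tppp family was Tppp3, also a tubulin-binding protein. Its log2 signal was 7.26 to 8.69 on the sufficient and 8.55 to 10.03 on the deficient arrays, which overlap. It was higher by 1.42 with labelled animals (SE 0.14, adjusted p = 0.00183 by limma) and did not pass with sex-matched pairs (SE 0.42, adjusted p = 0.201). Tppp2 was not detected on enough arrays. Of 33 genes of tubulin folding and microtubule dynamics 23 were measured, of which 3 were higher and 3 lower with labelled animals and 0 passed with sex-matched pairs. Stmn2, a neuronal stathmin, differed by 1.07 (limma adjusted p = 0.00501, 0.109 with sex-matched pairs), Stmn1, its relative in dividing cells, by -0.58 (0.0312 and 0.214) and Tpx2, a spindle assembly factor, by -0.85 (0.0171 and 0.439).

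Of 10 enzymes of tubulin acetylation and kinases linked to Tppp 8 were measured. Sirt2, a tubulin deacetylase, at 0.37, and Cdk5, at 0.38, were higher and Gsk3b, at -0.37, was among the 2 lower with labelled animals, and 0 passed with sex-matched pairs. Of 14 tubulins 10 were measured, and Tubb2b passed at 0.74 (limma adjusted p = 0.0309, 0.377 with sex-matched pairs).

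The outer dense fibre genes gave little beside Odf3b. Of 7 listed 1 was measured, Odf2, a centrosomal and sperm tail protein, at a log2 difference of -0.34 (limma adjusted p = 0.0616, 0.435 with sex-matched pairs). Of 40 cilium genes 18 were measured and 1 was higher with labelled animals, Rfx2, a transcription factor of ciliogenesis, at 0.93 (0.0389, 0.305 with sex-matched pairs). Foxj1 was measured and did not pass, and the dynein genes Dnah5, Dnah9 and Dnai1 were not detected on enough arrays. Of 12 genes near Odf3b 5 were measured and 0 passed, with a median of 0.06.

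Of 10 MAP kinase phosphatases listed 8 were measured, 0 were higher and 2 lower with labelled animals. Dusp1, the inducible phosphatase of p38 and JNK, was at 12.01 to 12.07 on the sufficient and 10.33 to 10.91 on the deficient arrays. It fell by 1.41 on the log2 scale and passed with both pairings (SE 0.13, limma adjusted p = 0.000601 and, with sex-matched pairs, 0.0204). Dusp2 was lower by labelled animals only, at -0.59 (0.00834 and 0.354). Of 19 atypical dual specificity phosphatases, the class Dusp26 belongs to, 10 were measured and 0 passed in either direction. Of 19 MAP kinases and named Dusp26 partners 11 were measured and 1, Map2k3, an activator of p38, was lower at -0.34 (0.0464 and 0.228).

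Around Leng1, 10 of 16 listed genes of the leukocyte receptor cluster were measured, and 0 passed with either pairing (median -0.06). Clock-controlled genes were listed because their level depends on the hour of sampling. Of 16, 12 were measured, 4 were higher and 1 lower with labelled animals. Per2, a clock repressor, was at 10.27 to 10.61 on the sufficient and 11.39 to 11.69 on the deficient arrays and passed with both pairings at 1.05 (SE 0.12, limma adjusted p = 0.000885 and 0.0250). Dbp differed by 0.94 and Arntl by -0.80 with labelled animals, and neither passed with sex-matched pairs (limma adjusted p = 0.233 and 0.232). The hour at which the animals were killed is not given in the sources used here, and its part in the members' differences was not tested.

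The nearest measured genes on the chromosome, up to 5 on each side, were read as well. Around Tppp 1 of 10 was higher with labelled animals (Slc6a19, 0.59), around Odf3b 0 of 10, around Leng1 0 of 9 and around Dusp26 1 of 10 (Fut10, 0.37), and 0 passed with sex-matched pairs. Slc6a19 and Fut10 were named after their values were seen.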

How the data were processed

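The deposited table holds, per array and probe, the authors' mean bead intensity on a linear scale, not normalized, with a p-value for detection beside it, as the file headers name them. The labels' protocols give Trizol extraction, column clean-up with DNase I and MessageAmp biotin labelling. The authors' deposited matrix holds log2 values, with a median of 0 per probe over the 12 arrays. Each column varied with its own array's scanner signal at r = 0.957 to 0.979 (9314 probes, slopes 1.11 to 1.19), which settles its direction, and column medians ran from -0.15 to 0.15. The normalization behind it is not given in the sources used here and its exact scale stays unknown.

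For this report, limma 3.58.1 under R 4.3.3 corrected the background of the intensities, normalized them by quantiles and took log2, in its function neqc with an offset of 16. The level of the negative controls came from the p-values of detection. The filter is given above. All 25697 probes were looked up in the platform annotation; 23978 had 1 symbol, and RefSeq (GRCm38.p6) held 23962 of them. Diet was fitted with lmFit and eBayes (limma, two-sided, Benjamini-Hochberg over 13497 probes, threshold 0.05) on the mean of the 2 arrays of each labelled animal, and beside it on sex-matched pairs. The fit was also run on simulated data with independent units and the spread of the labelled animals. That simulation held no mispaired arrays, so it says nothing about their effect on the fit. The number of animals limits the precision, and p-values set a difference against the spread between the units fitted. With labelled animals part of that spread is hidden where a male and a female array are averaged.

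The members and lists were chosen with earlier results of these data known. Named are all member probes, the 5 genes with the highest r within diets per member (its probe with the highest mean signal, without unnamed and provisional symbols), per list the 3 genes with the smallest p past the threshold with labelled animals and all past it with sex-matched pairs, and the Tppp and outer dense fibre families. In lists, the probe with the highest mean signal stands for a gene. For cell type lists, only genes that bear on a score are named. Same-numbered animals of the 2 diets (1 and 3) deviated from their group means at r = -0.06 and -0.05. Most of these means join a male and a female array, and the deviations of the 2 sufficient animals mirror each other. Whether the numbers pair the animals is therefore not settled. Alternatives were joining by sex, sex as a covariate, a replicate block, a random block, background correction, offset, probe filter, the authors' values, leaving out samples, and cell type scores as covariates.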

Additional observations from a re-analysis of the deposited data

Results flagged for a closer look

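The dimmer Odf3b probe, ILMN_1251371, had 1 deficient sex-matched pair far from the others. The males joined from deficient animals 3 and 4 had a mean log2 signal of 6.13, while the other 3 pairs lay at 6.81 to 6.82. The gap divided by the range was 0.992, above Dixon's critical value for 4 samples. Of 24 groups tested over the 6 probes this was the only one past its critical value, and chance passes about 1 in 20 groups. The brighter Odf3b probe had the same pair lowest, at 7.75, with a ratio of 0.659. This pair also had the lowest smooth muscle and fibroblast scores of the deficient diet; their part in the value was not tested.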

How the results depend on the processing

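None of the 178 values of the members' diet difference turned in sign, which for subsets of arrays follows from the choice of the members, and 126 moved by less than the pooled SD of the labelled animals. Many of the 126 could not move. Joining by sex, the random block and the probe filter leave a difference of means unchanged, and some omissions are counted under more than 1 setting. The 126 is therefore no measure of robustness. The second Tppp and the dimmer Odf3b probe have no value with detection p under 0.01 on all arrays, a filter they do not pass. Values below are in the order Tppp ILMN_2696110 and ILMN_2950422, Odf3b ILMN_2759088 and ILMN_1251371, Leng1, Dusp26. Without background correction they were 1.85, 1.26, 1.26, 0.90, 0.80 and 1.00, and with an offset of 50 they were 1.81, 1.14, 1.23, 0.83, 0.76 and 0.97. Both settings add background to dim signals. In the authors' values the last 5 were 2.52, 1.61, 1.73, 1.22 and 1.30. Within males the first Tppp and both Odf3b probes had 1.92, 1.05 and 1.04, and within females 2.23, 2.08 and 1.60. With the smooth muscle score as a covariate these 3 had 1.88, 1.15 and 0.95, and with the colonocyte score the Odf3b probes had 1.16 and 1.04. With the fibroblast score the 6 were 1.56, 1.12, 0.39, 0.36, 0.94 and 0.87, and with the 8-gene score 1.83, 1.27, 0.86 and 0.76, with Dusp26 at 0.87. Without the 4 arrays of high Tgm4 the brighter Odf3b probe had 1.75, Leng1 1.11 and Dusp26 1.05, and without the joined deficient males that Odf3b probe had 1.63. These covariates and omissions were chosen after seeing the data. Leaving out 1 animal or pair gave 1.92 to 2.21, 1.503 to 1.96, 1.16 to 1.76, 1.09 to 1.44, 0.94 to 1.12 and 1.08 to 1.26.

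Counts of called probes changed between settings. They cannot be set against the members' differences, since joining by sex leaves a difference of means as it is. The 1460 probes called for diet with labelled animals became 38 with sex-matched pairs and 7 with sex as a covariate too. With the replicate block over animals 1 and 3, 638 were called, against 1171 without the block on the same 4 animals. Leaving out 1 labelled animal gave 87 to 2060, with 98 and 87 when sufficient animal 1 or 3 was left out, where the lone animal is assumed to vary like the others. The 38 became 22 with detection p under 0.01 on all arrays, 1 with no filter, 11 in the authors' values, and 0 to 351 when 1 pair was left out: 0 without the sufficient or the deficient females (1141 and 1704 at an unadjusted p under 0.05) and 351 without the joined deficient males. Of the related and clock-controlled genes 21 passed with labelled animals, 2 with sex-matched pairs, 0 with sex as a covariate, 10 with the replicate block, 8 in the authors' values and 3 to 26 without 1 animal. The 2 became 0 with sex as a covariate or no filter, 1 in the authors' values and 0 to 5 without 1 pair. The sex term called 0 of the 6 probes, or of the 4 that pass the stricter filter, in the settings run, with a lowest adjusted p of 0.695 by limma. That value was for the second Tppp probe without the joined deficient males, where its unadjusted p was 0.0125. Of the 20 genes most like the members 5 were shared when centred by diet and sex, 12 in the authors' values and 8 by Spearman's rho. The causes were not tested. Dim signals limit the second Tppp probe most.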
